A study of Mus musculus with 7 samples.

Results

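The miRNAs described here are those of the imprinted Dlk1-Dio3 region of mouse chromosome 12 that lie outside the group antisense to Rtl1. They were taken by name: every mouse row whose stem is among 49 stems of the locus, from miR-770 at the Meg3 end to miR-3072 at the Mirg end, with any arm or copy number. This rule gave 98 of the 1914 mouse miRNA rows, and 73 of them were among the 534 mouse miRNAs with enough reads to be tested. The study sequenced small RNA from 4 TAp73 knockout and 3 wild type libraries, all of strain C57BL/6J, adult, the tissue being lateral ventricles with choroid plexus. TAp73 denotes p73 proteins, members of the p53 family of transcription factors, that keep their transactivation domain. The labels name no treatment and do not give the knockout allele, the exact age, or whether each library came from 1 animal, and every p-value therefore rests on variation from library to library, which may be technical. Per its title, the series concerns brain cells that form many motile cilia.

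The Dlk1-Dio3 region is imprinted. The protein-coding genes Dlk1, Rtl1 and Dio3 are expressed from the chromosome inherited from the father, and the long noncoding RNAs Meg3, Rian and Mirg, with the miRNAs they carry, from the one inherited from the mother. A miRNA is cut from a hairpin, whose 5p or 3p arm is loaded into an Argonaute protein and pairs with target mRNAs mainly through its seed, bases 2 to 8. The miRNAs from miR-379 to miR-410 form one of the largest miRNA clusters of placental mammals, are expressed mostly in the brain, and in neurons are induced by activity through the factor Mef2.

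In the RefSeq table for GRCm38.p6 the 50 hairpins of these miRNAs lie between 109563692 and 109747960 of chromosome 12, a span of 184.269 kb. They lie after Dlk1 (chr12:109452485-109463336) and before Dio3 (chr12:110279230-110281097), and 38 of them fall in the last 38.901 kb, from miR-379 on. In the GENCODE annotation of the same assembly, miR-770 lies in an exon of Meg3 and miR-341 and miR-370 in introns of Rian. A further 9 hairpins, among them miR-382, miR-134, miR-485, miR-377, miR-369 and miR-410, lie in exons of Mirg, and 4 (miR-154, miR-496a, miR-541 and miR-409) lie in its introns. The RefSeq model of Mirg starts later, at 109734981, so the hairpins of miR-382, miR-134, miR-668 and miR-485 lie outside it there. miR-3071 is encoded on the minus strand, in an exon of Rtl1 and opposite miR-136.

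The mature sequences below, from RefSeq (GRCm38.p6), belong to the arms on which the results turn, with the seed in capitals. The first 8 are the most abundant arms, from the highest level down, and supply most of the reads. The last 4 are those with the smallest p-values beside miR-341-3p, and the one with the largest positive fold change.
miR-411-5p: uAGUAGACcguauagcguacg
miR-410-3p: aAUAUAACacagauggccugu
miR-541-5p: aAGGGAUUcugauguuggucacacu
miR-381-3p: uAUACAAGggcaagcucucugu
miR-300-3p: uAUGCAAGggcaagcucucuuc
miR-409-5p: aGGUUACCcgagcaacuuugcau
miR-341-3p: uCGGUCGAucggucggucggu
miR-409-3p: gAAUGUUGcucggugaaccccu
miR-758-3p: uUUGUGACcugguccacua
miR-380-3p: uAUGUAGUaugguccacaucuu
miR-382-3p: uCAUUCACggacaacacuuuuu
miR-377-3p: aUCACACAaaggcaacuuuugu

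The seeds of these 12 arms all differ. miR-300-3p and miR-381-3p are the closest pair among them, with an edit distance of 3 over 22 bases. In the RefSeq table for GRCm38.p6 the hairpin of miR-411 lies at chr12:109710175-109710256, that of miR-410 at chr12:109743715-109743795, that of miR-541 at chr12:109742409-109742498 and that of miR-409 at chr12:109743158-109743236. The miR-381 hairpin lies at chr12:109726822-109726896 and the miR-300 hairpin at chr12:109724313-109724391. The miR-341 hairpin is at chr12:109611500-109611595, miR-758 at chr12:109712810-109712890, miR-380 at chr12:109711803-109711863, miR-382 at chr12:109733771-109733846 and miR-377 at chr12:109740510-109740577.

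Assigned reads per library ran from 969106 in knockout replicate 3 to 9343921 in knockout replicate 1, and the other 5 libraries held between 2238917 and 7775966. A level of 3 reads corresponded, in counts per 1000000 mouse miRNA reads (CPM), to 3.14 in the shallowest of the 7 and to 0.325 in the deepest. Levels below are CPM without further scaling, and fold changes are log2 values, knockout minus wild type, from the edgeR fit with TMM scaling. Trp73 is not a small RNA and was not measured. As a check of the tissue, miR-204 and miR-211, markers of choroid plexus epithelium, were summed. The sum was 2016 CPM in knockout replicate 3, 2015 CPM in wild type replicate 2 and between 5000 and 11789 CPM in the other 5 libraries. Nearly all of it was miR-204-5p, at 2006 CPM in knockout replicate 3 and 2009 CPM in wild type replicate 2. miR-211-5p stood at 2.47 to 7.33 CPM and was highest in knockout replicate 3, and miR-211-3p had 0 reads. The miR-34b/c and miR-449 arms of multiciliated cells summed to 386 to 760 CPM in the knockouts and to 1291 to 3675 CPM in the wild types. All 6 of the mouse miRNAs called at an adjusted p under 0.05 were in that miR-34b/c and miR-449 list. The 4 called miR-34b/c arms were lower in the knockouts, with log2 fold changes of -2.56 to -2.40. miR-449a-5p and miR-449c-5p were higher, at 2.67 and 3.12. That list therefore cannot check the tissue apart from the genotype. The tissue is a mixture of cells, so fewer cells of a type and less RNA per cell cannot be told apart.

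No miRNA of the locus outside the Rtl1 antisense group passed the test, and their summed level differed little between the genotypes. They made up 4.57%, 4.36%, 4.63% and 4.38% of mouse miRNA reads in knockout replicates 1 to 4 and 4.55%, 5.36% and 5.10% in wild type replicates 1 to 3. The knockout mean was 4.48% ± 0.14 (SD, n = 4) and the wild type mean 5.01% ± 0.41 (SD, n = 3), a log2 ratio of -0.16. The groups overlapped, since wild type replicate 1 lay among the knockouts. The ratio of -0.16 is on unscaled CPM, as are the sums by stretch and of the Rtl1 antisense miRNAs below. With library totals alone, the median log2 fold change of all 534 tested mouse miRNAs in edgeR was -0.10.

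The cluster was dominated by few arms. miR-411-5p, miR-410-3p, miR-541-5p, miR-381-3p and miR-300-3p together gave 73.2% of all reads of the 98 rows. Their means over the 7 libraries were 10057 ± 1044, 8260 ± 995, 7565 ± 953, 5273 ± 634 and 3303 ± 345 CPM (SD, n = 7). Next came miR-409-5p at 2429 ± 606, miR-341-3p at 1458 ± 244 and miR-409-3p at 734 ± 113 CPM. miR-541-5p lay above miR-381-3p, miR-381-3p above miR-300-3p, miR-409-5p above miR-341-3p and miR-341-3p above miR-409-3p in 7 of 7 libraries. The other neighbours were not separated in every library: miR-411-5p lay above miR-410-3p in 6 of 7, miR-300-3p above miR-409-5p in 6 of 7 and miR-410-3p above miR-541-5p in 5 of 7. Below them, 24 tested arms had means of 100 to 1000 CPM, 28 of 10 to 100 CPM and 14 under 10 CPM.

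**Figure D1:**
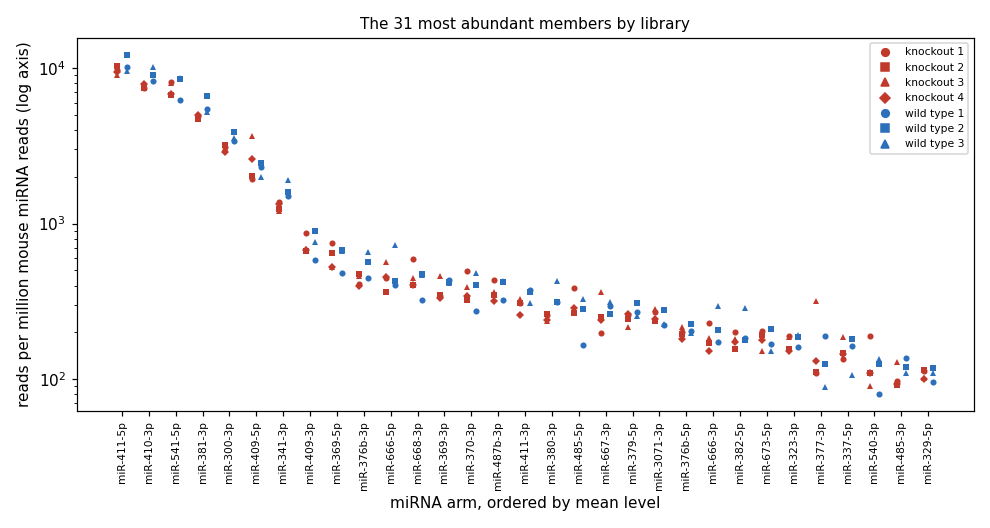
Level of the 31 arms with a mean of at least 100 CPM, in CPM on a log axis, ordered by mean. Each point is 1 library, red for knockout and blue for wild type, and miR-377-3p and miR-409-5p each have 1 knockout point, replicate 3, above all others.

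Among the 31 arms at 100 CPM or more, the coefficient of variation over the 7 libraries had a median of 16.1% and was under 15% for 14. It was lowest for miR-376b-5p, at 7.25%, and highest for miR-377-3p, at 52.0%, with miR-540-3p next at 29.6%.

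Of the 73 tested arms, 0 were called by edgeR at an adjusted p under 0.05, against 6 of all 534 tested mouse miRNAs (1.12%), of which 4 were lower (0.749%) and 2 higher (0.375%). DESeq2 also called 0, against 14 of 534 (2.62%), with no adjusted p for 9 of the 73, and limma-voom called 0. At an unadjusted p under 0.05 there were 4, all with lower levels in the knockouts, against 12.9% of all tested mouse miRNAs in either direction and 6.74% lower; 4 of 73 is 5.48%. The groups did not overlap for 9 arms, all lower in the knockouts (12.3%), where 8.24% of all tested mouse miRNAs were lower and 3.56% higher without overlap. After TMM scaling this number was 7 (9.59%), against 6.18% lower and 4.87% higher among all.

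The log2 fold changes of the 73 ran from -0.94 to 0.34, with a median of -0.14, and 50 of them (68.5%) were below 0. Over all 534 tested miRNAs the median was -0.02 and 52.8% were below 0. The 95% interval lay within a 2-fold change either way for 62 of the 73 (84.9%), against 72.8% of all tested miRNAs. For 10 arms it reached past a 2-fold lower level and for 1, miR-377-3p, past a 2-fold higher one.

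**Figure D2:**
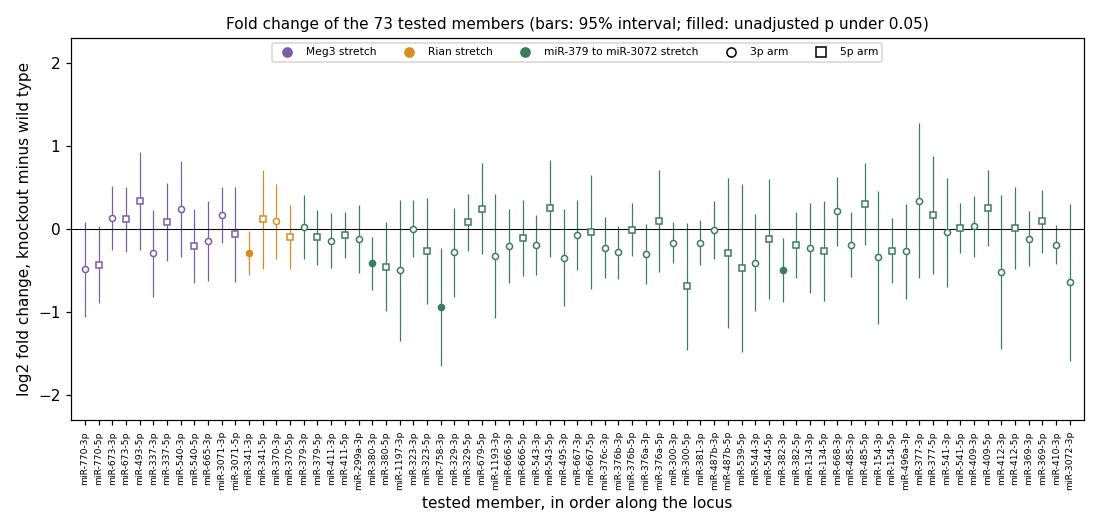
Log2 fold change, knockout minus wild type, of the 73 tested arms in order along the locus, with 95% intervals from edgeR; circles are 3p arms, squares 5p arms, and filled symbols have an unadjusted p under 0.05. From miR-379 on, 42 of 57 points lie below 0, and the 4 filled ones are miR-341-3p, miR-380-3p, miR-758-3p and miR-382-3p.

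The arm with the smallest p was miR-758-3p, from the early part of the miR-379 cluster. Its level was 80.5, 70.9, 53.4 and 67.5 CPM in knockout replicates 1 to 4 and 105, 74.6 and 242 CPM in wild type replicates 1 to 3. Wild type replicate 3 stood far above the others, and the groups overlapped, wild type replicate 2 lying below knockout replicate 1. The log2 fold change was -0.94 ± 0.32 (SE; 95% interval -1.64 to -0.23; edgeR adjusted p = 0.30). Without wild type replicate 3 it was -0.33, with an edgeR p of 0.16. Without wild type replicate 2 it was -1.23, with an adjusted p of 0.060, and with no filter on low counts the adjusted p was 0.027, the only call among the 73 under any alternative tried. Over all alternatives its adjusted p ran from 0.027 to 0.57.

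miR-380-3p, whose hairpin precedes that of miR-758, stood at 257, 263, 238 and 241 CPM in the knockouts and at 312, 316 and 427 CPM in the wild types. All 4 knockouts were below all 3 wild types, and wild type replicate 3 was again the highest. The log2 fold change was -0.41 ± 0.15 (SE; 95% interval -0.73 to -0.09; edgeR adjusted p = 0.31). Its other arm, miR-380-5p, at 11.6 to 15.7 CPM in the knockouts and 13.6 to 25.5 CPM in the wild types, had a log2 fold change of -0.45 ± 0.24 (SE; edgeR adjusted p = 0.46).

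miR-382-3p, from an exon of Mirg in GENCODE, stood at 57.0, 61.2, 69.1 and 68.5 CPM in the knockouts and at 94.2, 75.5 and 114 CPM in the wild types. The groups did not overlap, with the smallest gap between wild type replicate 2 and knockout replicate 3. Its log2 fold change was -0.49 ± 0.18 (SE; 95% interval -0.88 to -0.11; edgeR adjusted p = 0.31). The more abundant arm, miR-382-5p, had a mean of 179 ± 18.9 CPM in the knockouts (SD, n = 4) and 217 ± 60.0 CPM in the wild types (SD, n = 3), with a log2 fold change of -0.19 ± 0.18 (SE; edgeR adjusted p = 0.69).

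miR-341-3p, from an intron of Rian, stood at 1385, 1246, 1215 and 1333 CPM in the knockouts and at 1509, 1602 and 1914 CPM in the wild types. The groups did not overlap, and wild type replicate 3 was the highest library. The log2 fold change was -0.29 ± 0.12 (SE; 95% interval -0.55 to -0.03; edgeR adjusted p = 0.38). Its other arm, miR-341-5p, stood at 5.07 to 5.74 CPM in the knockouts and 4.52 to 5.76 CPM in the wild types, with a log2 fold change of 0.12 ± 0.27 (SE; edgeR adjusted p = 0.86).

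Wild type replicate 3 was the highest library for each of these 4 arms. Without it the log2 fold changes of miR-380-3p, miR-382-3p and miR-341-3p were -0.28, -0.37 and -0.22, and the single arm of the 73 with an unadjusted p under 0.05 was another, miR-337-3p. It was the highest library for 24 of the 73 tested arms (32.9%), against 26.2% of all tested mouse miRNAs, followed by wild type replicate 2 with 14 and wild type replicate 1 with 13. The lowest library was a knockout for 52 of the 73 (71.2%), against 60.1% of all. Wild type replicate 3 also differed in its markers. The summed level of the 7 rows of miR-7a, miR-7b and miR-375, which mark pituitary and hypothalamus, was 1403 CPM in it and 358 to 631 CPM in the other 6 libraries, with miR-375-5p at 0 reads in all. The 22 rows of neuronal miRNAs, such as miR-124, miR-128 and miR-132, summed to 26756 CPM in wild type replicate 3, to 36669 and 44147 CPM in wild type replicates 1 and 2 and to between 41973 and 48350 CPM in the knockouts. None of the 22 neuronal rows was at 0 in all libraries. Not all were low in wild type replicate 3, where miR-129-2-3p (481 CPM, next 425) and miR-218-1-3p (12.3 CPM, next 11.8) were highest. Wild type replicate 3 was also the highest library for the sums of the choroid plexus markers (11789 CPM, next 8320) and multiciliated markers (3675 CPM, next 3268). The same held for the sums of the vessel wall and fibroblast markers (25513 CPM, next 21399) and oligodendrocyte markers (1002 CPM, next 840). Single arms carried most of these sums, such as miR-143-3p at 24270 CPM, and not every arm went the same way. miR-449a-5p was at 20.0 CPM in wild type replicate 3 and at 45.0 to 189 CPM in the knockouts. miR-145a-3p was highest in knockout replicate 3 (110 CPM) and miR-338-5p in knockout replicate 1 (327 CPM). The part of these markers in the results was not tested.

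**Figure D3:**
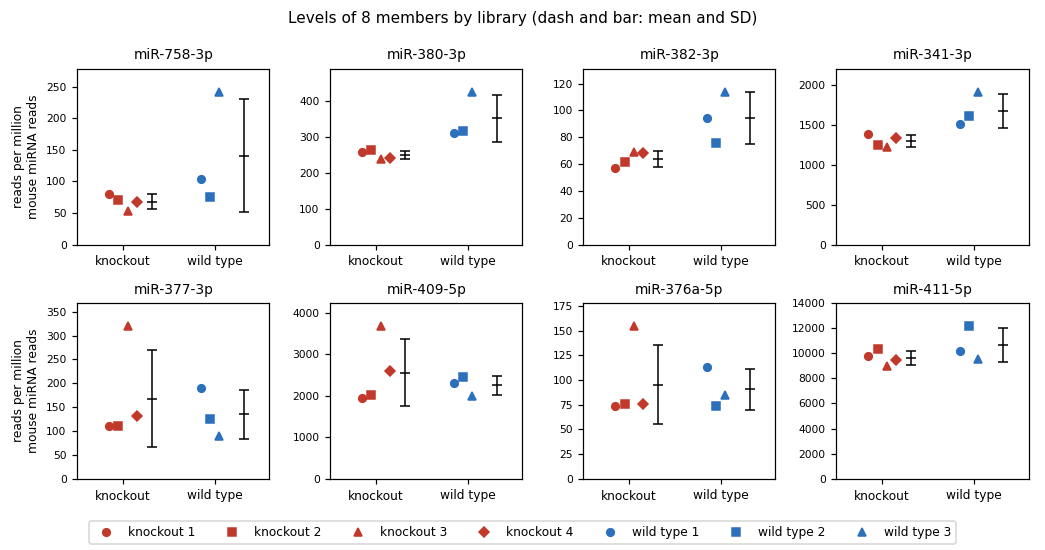
Level of 8 arms by library in CPM, each axis starting at 0, with the mean and SD of each group beside the points. Wild type replicate 3 is the highest point for miR-758-3p, miR-380-3p, miR-382-3p and miR-341-3p, and knockout replicate 3 the highest for miR-377-3p, miR-409-5p and miR-376a-5p; miR-411-5p is shown as the most abundant arm.

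Among the abundant arms, 3 others had groups that did not overlap. miR-410-3p stood at 7497, 7408, 7567 and 7921 CPM in the knockouts and 8291, 9014 and 10121 CPM in the wild types, with a log2 fold change of -0.19 ± 0.10 (SE; edgeR adjusted p = 0.48). miR-381-3p stood at 4901, 4712, 5019 and 4965 CPM against 5475, 6600 and 5240 CPM, with -0.16 ± 0.12 (SE; edgeR adjusted p = 0.60). miR-300-3p, whose sequence is close to that of miR-381-3p, stood at 3115, 3188, 3042 and 2908 CPM against 3400, 3909 and 3560 CPM, with -0.17 ± 0.11 (SE; edgeR adjusted p = 0.57). Without wild type replicate 2, the highest library for miR-381-3p and miR-300-3p, their values were -0.0268 and -0.0822. How reads that match both miR-300-3p and miR-381-3p were counted is not given in the sources used here, which leaves the split between them uncertain. The other 3 arms without overlap, named after their values were seen, were miR-376a-3p, miR-376c-3p and miR-154-5p. Their log2 fold changes were -0.30, -0.23 and -0.26, with edgeR adjusted p-values of 0.48, 0.59 and 0.57. miR-376c-3p lay at 35.3 to 43.98 CPM in the knockouts and 48.3 to 54.9 CPM in the wild types.

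The remaining abundant arms had groups that overlapped. miR-411-5p, the most abundant arm of all, stood at 9746, 10317, 8967 and 9433 CPM in the knockouts and 10184, 12187 and 9566 CPM in the wild types, with a log2 fold change of -0.07 ± 0.12 (SE; 95% interval within a 2-fold change; edgeR adjusted p = 0.81). miR-541-5p stood at 8110, 6716, 7998 and 6815 CPM against 6232, 8490 and 8592 CPM, with 0.01 ± 0.14 (SE; edgeR adjusted p = 0.98). Wild type replicate 1 was thus the lowest library for miR-541-5p, and the other two wild types the highest. The value of miR-411-5p was above 0 without wild type replicate 2 (0.0647), and that of miR-541-5p changed sign with the scaling and with a library left out.

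miR-409-5p stood at 1936, 2027, 3685 and 2592 CPM in the knockouts and 2315, 2448 and 2002 CPM in the wild types. Knockout replicate 3 was the highest library and the other 3 knockouts spanned the range of the wild types. The log2 fold change was 0.25 ± 0.21 (SE; edgeR adjusted p = 0.65), and 0.0281 without knockout replicate 3. The 3p arm of the same hairpin, miR-409-3p, was highest in wild type replicate 2, at 891 CPM, and in knockout replicate 1, at 869 CPM, with a log2 fold change of 0.03 ± 0.17 (SE; edgeR adjusted p = 0.94).

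The largest positive fold change was that of miR-377-3p, from an exon of Mirg. Its level was 110, 110, 320 and 131 CPM in the knockouts and 191, 125 and 89.1 CPM in the wild types. Knockout replicate 3, the shallowest library, stood alone, and the log2 fold change of 0.34 ± 0.42 (SE; 95% interval -0.59 to 1.28; edgeR adjusted p = 0.74) was -0.14 without it. Among arms of 50 CPM or more, miR-376a-5p had a like pattern, at 154.97 CPM in knockout replicate 3 and no higher than 113 CPM in any other library. miR-376a-5p was picked for this after its values were seen.

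Next came miR-493-5p and miR-485-5p. miR-493-5p stood at 12.6 to 16.2 CPM in the knockouts and at 13.3, 7.23 and 15.6 CPM in the wild types, with 0.34 ± 0.27 (SE; edgeR adjusted p = 0.61) and 0.12 without wild type replicate 2, its lowest library. miR-485-5p, which is known to act on presynaptic SV2A, stood at 384, 265, 268 and 286 CPM in the knockouts and 166, 284 and 330 CPM in the wild types. Its log2 fold change was 0.30 ± 0.22 (SE; edgeR adjusted p = 0.60), and wild type replicate 1 alone lay below the knockouts. Without that library it was 0.0491. Its 3p arm, miR-485-3p, had -0.19 ± 0.18 (SE; edgeR adjusted p = 0.69).

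After miR-758-3p the lowest fold changes belonged to arms at under 10 CPM. miR-300-5p stood at 4.68 to 6.28 CPM in the knockouts and at 13.7, 4.97 and 7.95 CPM in the wild types, with -0.69 ± 0.35 (SE; edgeR adjusted p = 0.42). miR-3072-3p stood at 2.47 to 4.19 CPM and at 8.53, 3.62 and 3.29 CPM, with -0.64 ± 0.43 (SE; edgeR adjusted p = 0.57). Wild type replicate 1 was the highest library for both, and without it the values were -0.26 for miR-300-5p and -0.0769 for miR-3072-3p. miR-134-5p, known for limiting the size of dendritic spines through Limk1, stood at 46.1 to 87.1 CPM in the knockouts and 62.6, 65.1 and 131.6 CPM in the wild types. Its log2 fold change was -0.26 ± 0.27 (SE; edgeR adjusted p = 0.73). miR-134-5p was named for its known role, not by the size of its change.

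The locus was then described in 3 stretches, set by hairpin start alone: before Rian, from there to before miR-379, and from miR-379 on. The names Meg3 and Rian stretch do not give the host gene. GENCODE places only miR-770 of these hairpins in Meg3, and only miR-341 and miR-370 in Rian. The Meg3 stretch, with miR-770, miR-673, miR-493, miR-337, miR-540, miR-665, miR-3070 and miR-3071, summed to 979 ± 76.4 CPM in the knockouts (SD, n = 4) and 990 ± 111 CPM in the wild types (SD, n = 3). Of its 12 tested arms 6 had a log2 fold change below 0, and the median was 0.01. The Rian stretch, with miR-341, miR-370 and miR-882, summed to 1972, 1648, 1706 and 1753 CPM in the knockouts and 1882, 2116 and 2478 CPM in the wild types, and 2 of its 4 tested arms were below 0. Most of that sum was miR-341-3p.

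The miR-379 to miR-3072 stretch held 93.8% of the reads and summed to 42089 ± 1282 CPM in the knockouts (SD, n = 4) and 46920 ± 3861 CPM in the wild types (SD, n = 3). There 42 of 57 tested arms were below 0, with a median of -0.17, beside 52.8% and -0.02 over all tested mouse miRNAs. The difference between the stretches was not tested. miR-3071-3p, in the Meg3 stretch at 222.4 to 279 CPM in every wild type, is encoded opposite miR-136, and whether the counting used strand is not given in the sources used here, so its value is uncertain.

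Arm by arm, 32 of the 41 tested 3p arms had a log2 fold change below 0, with a median of -0.19, and 18 of the 32 tested 5p arms, with a median of -0.05. In the 29 hairpins with both arms tested, both were below 0 in 12, both above in 3 (miR-673, miR-377 and miR-409), the 3p arm alone in 9 and the 5p arm alone in 5. By level, 5 of the 7 arms at 1000 CPM or more were below 0 (median -0.16) and 12 of the 24 at 100 to 1000 CPM (median -0.00). So were 21 of the 28 at 10 to 100 CPM (median -0.23) and 12 of the 14 under 10 CPM (median -0.33). Over all 534 tested mouse miRNAs 52.8% were below 0, with a median of -0.02. Their shares by arm and by level are not given here, and differences between arms or levels were not tested.

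The share of a hairpin's reads on each arm does not depend on the scaling between libraries. Of 44 hairpins with at least 100 reads, 24 had more reads on the 3p arm and 17 on the 5p arm in all 7 libraries. The arm with more reads changed between libraries in 3, miR-376a, miR-544 and miR-1193. The 3p share was 0.0847% for miR-541, 3.12% for miR-411, 23.8% for miR-409, 54.1% for miR-770, 70.3% for miR-376b and 94.8% for miR-380 as means over 7 libraries.

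The knockouts and wild types overlapped in 41 of the 44 hairpins. In the other 3, miR-337, miR-382 and miR-341, the 3p share was lower in all knockouts, where it was lower without overlap in 6 of all 297 mouse hairpins with as many reads (2.02%) and higher in 6 (2.02%). For miR-382 it was 22.0%, 28.1%, 27.5% and 28.2% in the knockouts and 33.8%, 29.6% and 28.5% in the wild types. For miR-337 the means were 7.61% ± 1.24 (SD, n = 4) and 9.83% ± 0.88 (SD, n = 3). Its closest libraries were knockout replicate 2 at 8.52% and wild type replicate 2 at 8.84%. For miR-341 the share was 99.57% to 99.60% in the knockouts and 99.63% to 99.72% in the wild types. That small gap rests on few reads of miR-341-5p, with 5 in knockout replicate 3 and 10 in wild type replicate 2. The miR-485 share ran from 20.3% in knockout replicate 1 to 45.2% in wild type replicate 1. The miR-409 share ran from 15.7% in knockout replicate 3 to 30.98% in knockout replicate 1, and the wild types, at 20.2% to 27.7%, lay between.

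**Figure D4:**
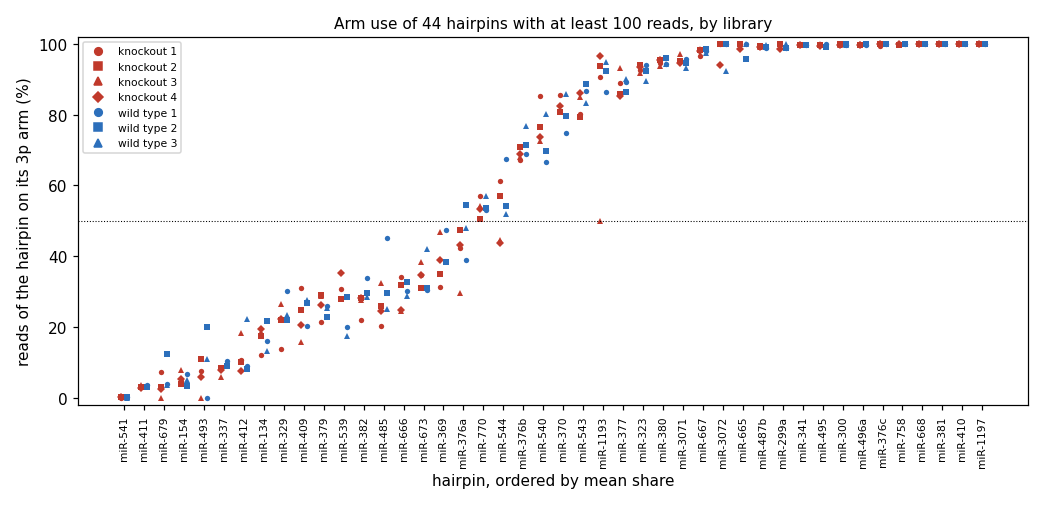
Share of each hairpin's reads on its 3p arm, in percent, for 44 hairpins with at least 100 reads, ordered by mean share; each point is 1 library, red for knockout and blue for wild type, and the dotted line marks 50%. In 24 hairpins all libraries lie above the line and in 17 below it, and the groups overlap in 41.

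Mature sequences matched for 94 of the 98 rows, and the arms without an entry in the table were miR-376c-3p, miR-485-5p, miR-487b-3p and miR-539-3p. The 94 carried 86 distinct seeds, and 16 rows fell into 8 groups of shared seed. In 2 of these groups both arms were tested, and these are shown here.
miR-379-3p: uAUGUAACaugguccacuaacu
miR-411-3p: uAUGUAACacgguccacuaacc
miR-370-5p: cAGGUCACgucucugcaguu
miR-1193-3p: uAGGUCACccguuuuacuauc

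miR-379-3p and miR-411-3p differ by an edit distance of 2. How reads that match both were counted is not given in the sources used here, so the split between them is uncertain. miR-411-3p was the more abundant, at 302 ± 30.6 CPM in the knockouts and 350 ± 35.3 CPM in the wild types, and miR-379-3p stood at 87.8 ± 13.3 and 90.8 ± 3.80 CPM (SD, n = 4 and n = 3). Their log2 fold changes were -0.14 ± 0.15 and 0.03 ± 0.17 (SE; edgeR adjusted p = 0.73 and 0.96). miR-370-5p stood at 81.6 ± 8.95 CPM in the knockouts and 91.5 ± 12.3 CPM in the wild types (SD, n = 4 and n = 3) and miR-1193-3p at 5.28 and 7.61 CPM as group means. Their log2 fold changes were -0.10 ± 0.18 and -0.32 ± 0.34 (SE; edgeR adjusted p = 0.82 and 0.73).

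The miR-376 arms, in which editing of adenosine to inosine within the seed is known, come from adjacent hairpins, at chr12:109723458-109723539 for miR-376b and chr12:109723781-109723848 for miR-376a.
miR-376a-3p: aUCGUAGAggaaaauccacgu
miR-376b-3p: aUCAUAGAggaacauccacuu

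Their edit distance is 3, and the split of reads between them is uncertain for the same reason as for miR-379-3p and miR-411-3p. miR-376b-5p and miR-376c-5p are closer, at an edit distance of 1, and had 6025 and 2 reads in all. The split between these 5p arms is uncertain too, and with it the miR-376b-5p level and the 3p shares of both hairpins. miR-376b-3p, at 436 ± 37.9 CPM in the knockouts (SD, n = 4) and 559 ± 104 CPM in the wild types (SD, n = 3), had a log2 fold change of -0.28 ± 0.15 (SE; edgeR adjusted p = 0.44). miR-376a-3p, at 61.3 ± 6.46 and 79.3 ± 7.94 CPM, had -0.30 ± 0.17 (SE; edgeR adjusted p = 0.48). Of the 94 rows with a sequence, 13 shared a seed with a mouse miRNA outside the 98, as miR-495-3p did with miR-1192.

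GC content of the mature arm was set beside each library, since the arms span 23.8% to 76.2% GC with a median of 47.7% (70 of the 73 tested arms). Across these arms, Spearman's rho between GC content and a library's deviation from the mean of all 7 was 0.48 in knockout replicate 1, -0.38 in wild type replicate 1, 0.18 in wild type replicate 3 and between -0.19 and -0.02 in the other 4. Over all tested miRNAs with a sequence (470 of 534) it was 0.19, -0.10 and 0.12 in the first 3 of these libraries. Between GC content and the log2 fold change rho was 0.14 over the 70 arms and 0.01 over the 470. These correlations are descriptions across arms that share libraries.

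**Figure D5:**
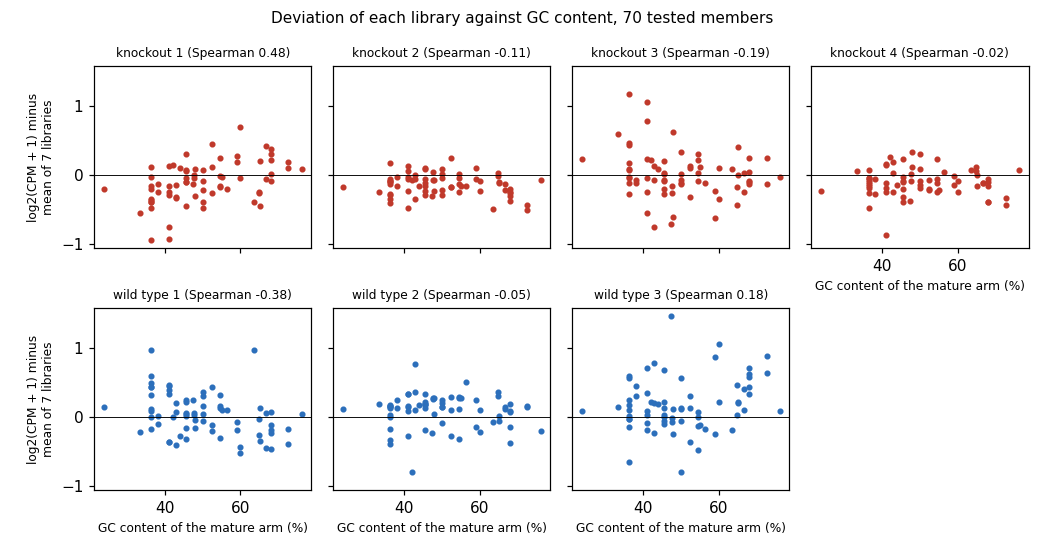
Deviation of each library from the mean of the 7 libraries on the log2(CPM + 1) scale, against the GC content of the mature arm in percent, for 70 tested arms. Points rise with GC in knockout replicate 1 (Spearman 0.48) and descend in wild type replicate 1 (-0.38).

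The 25 rows not tested all had few reads or none. Of these, 7 had 0 reads in every library, namely miR-882, both arms of miR-299b and of miR-654, miR-1197-5p and miR-494-5p. Outside miR-299b, 0 reads allow a level of up to 0.325 CPM in the deepest library and 3.14 CPM in the shallowest. miR-299b-3p has the sequence of the first 18 bases of miR-299a-3p, which had 886 reads in all. miR-299b-5p and miR-299a-5p differ by an edit distance of 1. How reads that match both were counted is not given, so 0 reads set no such limit for miR-299b. The other 18 untested rows had at most 60 reads over all 7 libraries, the most for miR-539-3p. The tested arm with the fewest reads had 77. Among the untested were the minor arms of abundant hairpins: miR-410-5p with 36 reads in all and miR-381-5p with 40. The untested miR-493-3p had 38 reads in all.

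The Rtl1 antisense miRNAs, which lie before Rian among the hairpins of the Meg3 stretch and pair with the Rtl1 transcript, summed to 201131 ± 12575 CPM in the knockouts (SD, n = 4) and 230574 ± 12024 CPM in the wild types (SD, n = 3), over 4 times the sum of the 98 rows. Of their 11 tested arms 0 were called by edgeR, 1 had an unadjusted p under 0.05, 9 had a log2 fold change below 0, and the median was -0.15. The neighbouring group was thus at a median close to the -0.14 of the arms described here, and the difference between the groups was not tested.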

How the data were processed

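Per the labels' protocols, RNA was extracted by phenol and chloroform and libraries were made with Illumina's TruSeq small RNA kit. From the submitters' processing notes come the names mm10, bcl2fastq 2.17.1.14 and DESeq2, with no role. How reads were aligned, counted and annotated is not given in the sources used here. Raw read counts per small RNA were deposited by the authors. Without molecular identifiers a read is not 1 molecule, and detection limits cover counting error only.

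Groups came from the genotype label. Replicate numbers follow accession order, and no batch is given. All mouse miRNA rows were fitted with edgeR 4.0.16 in R 4.3.3 (TMM, filterByExpr with minimum count 10 and minimum total 15, robust quasi-likelihood test, Benjamini-Hochberg adjustment over 534 miRNAs, called under 0.05). The fitting was tested on simulated data. CPM used mouse miRNA reads, without TMM. Alternatives were DESeq2 1.42.0, limma-voom (limma 3.58.1), other scalings and filters, rows of all species summed by name, and each library left out. Leaving out knockout replicate 3 and wild type replicate 2 together, the libraries lowest in choroid plexus markers, was chosen after seeing the data. Arm shares needed 100 reads per hairpin, and deviations used a pseudocount of 1 CPM.

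The members and lists were chosen with earlier results of these data known. Named with values were the 8 most abundant arms, arms with an unadjusted p under 0.05, the 3 largest changes each way, and the other arms of these hairpins. Others are named as chosen after their values were seen, for a known role or for a shared seed. Sequences and positions come from RefSeq (GRCm38.p6), host genes from GENCODE.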

Additional observations from a re-analysis of the deposited data

Results flagged for a closer look

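Among 79 levels and arm shares examined over the 4 knockout libraries, 13 had a library apart from the other 3 by the gap test at the 95% level. The chance rate of about 1 in 20 holds only for values without ties. Where 3 libraries tie at 0 CPM or 100%, any stray read sets the remaining library apart. A level and a share of the same arm are also not independent, so the 13 cannot be set against that rate. The 3 wild types were too few to examine. Knockout replicate 3, the shallowest library, had miR-377-3p at 320 CPM (110 to 131 in the other knockouts) and miR-485-3p at 128.8 CPM (92.4 to 97.7), and its miR-1193 3p share was 50% (90.7 to 96.4) on 6 reads. Its miR-496a 3p share was 100% (99.75 to 99.78). Knockout replicate 1 had miR-409-3p at 869 CPM (664.96 to 686.9), miR-376c-3p at 35.3 CPM (42.5 to 43.98), the miR-382 3p share at 22.0% (27.5 to 28.2) and the miR-376c 3p share at 99.4% (100 in the others). The remaining 5, like the miR-376c and miR-496a shares above, rest on 1 or 2 reads of a minor arm. Knockout replicate 2 had miR-758-5p at 0.26 CPM (0 in the others) and the miR-758 3p share at 99.6% (100). Knockout replicate 4 had miR-3072-5p at 0.258 CPM (0 in the others), the miR-3072 3p share at 94.1% (100) and the miR-665 3p share at 98.4% (100).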

How the results depend on the processing

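Of 387 comparisons of 23 named arms with their values under the alternatives, 367 kept the direction and the side of the threshold. In 19 the direction reversed and in 1 a call was gained. None of these arms was called in the edgeR fit, so no call could be lost. A missing DESeq2 adjusted p was counted as no call. The 367 therefore describe mostly the direction. No arm was called lower or higher with any library left out (0 to 0). With no filter 1 arm, miR-758-3p, was called (edgeR adjusted p = 0.027). Calls among all mouse miRNAs, 6 in the edgeR fit, were 14 with DESeq2, 19 with no filter, 19 without knockout replicate 3 and wild type replicate 2, and 3 to 14 with 1 library left out. Arms with an unadjusted p under 0.05, 4 in the edgeR fit, numbered 7 with upper quartile scaling, 10 with library totals alone and 1 to 7 with 1 library left out. The median log2 fold change of the tested arms was -0.20 with upper quartile scaling, -0.21 with library totals alone and -0.17 to -0.0776 with 1 library left out, and it was below that of all tested mouse miRNAs under each of the 17 alternatives. With library totals alone, 55 of 73 arms and 61.6% of all tested miRNAs were below 0. With 1 library left out, 40 to 59 arms were below 0, the log2 ratio of the summed level was -0.22 to -0.11, and 9 to 17 arms were lower without overlap, where 9.74% to 15.7% of all tested mouse miRNAs were. The 17 (23.3%) were without wild type replicate 3, and the share of all tested mouse miRNAs was then 15%. The log2 fold change of miR-541-5p was -0.0461 with upper quartile scaling, -0.0688 with library totals alone and -0.13 to 0.0987 with 1 library left out. For miR-409-3p these were -0.0237, -0.0456 and -0.12 to 0.20. Without knockout replicate 3 and wild type replicate 2 the values were 0.10 for miR-411-5p, -0.16 for miR-377-3p and 0.0240 for miR-541-3p, which was 0.00791 with no filter. With 1 library left out they ran from -0.17 to 0.0647 for miR-411-5p, -0.14 to 0.68 for miR-377-3p, -0.19 to 0.13 for miR-541-3p, -0.31 to 0.0221 for miR-382-5p and -0.18 to 0.44 for miR-377-5p. The causes were not tested. No paired analysis was possible because the labels give the groups no shared replicate numbers. Depth limits arms under 10 CPM most, since 3 reads are 3.14 CPM in the shallowest library.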
